A study of Mus musculus with 8 samples.

Results

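Acetylated histone H3 (H3ac) was compared between day 2 and day 4 of the differentiation of mouse embryonic stem cells, using the 17368 peaks called on day 2 and the 12945 peaks called on day 4. These 30313 regions were all the peaks of those days, out of 41152 in the 4 peak lists of the series. A peak counted as shared when it overlapped a peak of the other day by at least 1 bp, and otherwise as a day 2 only or a day 4 only peak. The cells were embryonic stem cells of the 129/Ola strain, plated on gelatin and differentiated without serum in N2B27 medium, and each day had 1 chromatin immunoprecipitation (ChIP-seq) library with an antibody against acetylated H3 and 1 input library. H3ac on day 6 (5553 peaks) and HDAC1 on day 2 (5286 peaks, precipitated through a FLAG tag) came from the same system, again with 1 library each, and they are readouts that played no part in sorting the peaks into shared and unshared.

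With 1 library a day no difference between days has a replicate check. The 95% intervals (Wilson) cover counting error only, and neighbouring peaks are not independent. Each peak has a score given by the authors, from 50 upward on a scale that is not stated, and it was used here for order inside 1 list and nothing else. What is called depends on sequencing depth and enrichment, neither of which the files state, so a gene without a peak may still have been acetylated. The day 2 list was longer and its peaks were narrower, with a median width of 591 bp against 792 bp, so the lists covered 12.8 Mb and 11.9 Mb of build mm10. A lower depth on either day and a loss of acetylation cannot be told apart, nor can fewer cells with the mark and less of the mark in each cell.

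Acetylation of the tail of histone H3 loosens its grip on DNA and offers a docking site to bromodomain proteins. It marks active promoters, just downstream of the transcription start, and active enhancers. Acetyltransferases such as p300 write the mark and deacetylases such as HDAC1 remove it. Embryonic stem cells taken out of self-renewal conditions pass from a naive to a primed, epiblast-like state, and in N2B27 many then become neural progenitors. The naive network is shut down early on that path, Pou5f1 later, and neural and patterning genes are switched on.

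The promoters below are shown because they belong to genes with a high-scoring gene-end peak on 1 day and none on the other, and they are RefSeq sequences of GRCm38, the build also called mm10, giving the 250 bases before a listed transcription start from 5′ to 3′ with CpG dinucleotides in capitals. The first set is from day 2 only genes: Pou5f1 encodes the pluripotency factor Oct4, Utf1 a chromatin factor of pluripotent cells and Fgf4 the growth factor that drives exit from the naive state.
Pou5f1, chr17:35505782-35506031, plus strand: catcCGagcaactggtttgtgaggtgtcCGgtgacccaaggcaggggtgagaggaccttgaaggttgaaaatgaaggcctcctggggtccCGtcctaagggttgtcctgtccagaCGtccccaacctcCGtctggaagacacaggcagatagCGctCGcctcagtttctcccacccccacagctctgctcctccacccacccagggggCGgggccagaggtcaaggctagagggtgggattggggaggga
Utf1, chr7:139943606-139943855, plus strand: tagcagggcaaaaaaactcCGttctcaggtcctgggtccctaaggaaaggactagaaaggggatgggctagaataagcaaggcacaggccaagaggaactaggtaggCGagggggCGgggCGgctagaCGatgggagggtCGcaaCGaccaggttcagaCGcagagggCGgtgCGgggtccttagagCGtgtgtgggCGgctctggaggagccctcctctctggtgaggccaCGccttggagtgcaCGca
Fgf4, chr7:144861136-144861385, plus strand: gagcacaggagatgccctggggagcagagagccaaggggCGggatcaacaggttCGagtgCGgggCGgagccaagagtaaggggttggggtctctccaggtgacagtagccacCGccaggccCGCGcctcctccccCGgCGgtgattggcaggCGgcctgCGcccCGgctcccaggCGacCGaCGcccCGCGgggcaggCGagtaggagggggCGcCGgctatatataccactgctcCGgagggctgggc
The second set is from day 4 only genes: Meis1 encodes a homeodomain partner of Hox factors, Crabp1 a carrier of retinoic acid in the cytoplasm and Id3 an inhibitor of basic helix-loop-helix factors that BMP signalling induces.
Meis1, chr11:19018970-19019219, minus strand: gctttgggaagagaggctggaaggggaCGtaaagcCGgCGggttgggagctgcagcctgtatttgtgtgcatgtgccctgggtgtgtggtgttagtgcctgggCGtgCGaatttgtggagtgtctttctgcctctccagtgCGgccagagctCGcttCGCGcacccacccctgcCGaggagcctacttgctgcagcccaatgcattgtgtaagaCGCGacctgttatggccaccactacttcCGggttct
Crabp1, chr9:54764498-54764747, plus strand: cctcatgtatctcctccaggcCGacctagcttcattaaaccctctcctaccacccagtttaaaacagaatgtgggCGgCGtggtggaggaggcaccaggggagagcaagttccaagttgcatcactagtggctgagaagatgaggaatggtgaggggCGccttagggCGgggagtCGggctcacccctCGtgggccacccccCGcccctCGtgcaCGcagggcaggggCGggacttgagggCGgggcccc
Id3, chr4:136143572-136143821, plus strand: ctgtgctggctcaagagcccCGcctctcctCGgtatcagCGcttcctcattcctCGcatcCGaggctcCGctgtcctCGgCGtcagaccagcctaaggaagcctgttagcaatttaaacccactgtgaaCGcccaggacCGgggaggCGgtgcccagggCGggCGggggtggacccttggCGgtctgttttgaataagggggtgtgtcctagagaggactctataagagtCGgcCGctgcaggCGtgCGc
The stretches held 8, 14 and 21 CpG in the first set and 13, 12 and 18 in the second, so CpG content did not separate these 6. GGGCGG, the GC box, was found on either strand in all of them but Meis1, and CCGGAAG, an ETS-type motif, was found in Meis1 and in none of the other promoters shown. The day 2 peak of Pou5f1 covered all 250 bases, and that of Utf1 began 8 bp past the start at 139943856 and covered none. The Meis1 peak of day 4 covered all 250 bases.

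Of the day 2 peaks, 8723 (50.2%, interval 49.5 to 51.0%) overlapped a day 4 peak, and of the day 4 peaks 8268 (63.9%, 63.0 to 64.7%) overlapped a day 2 peak. That left 8645 day 2 only and 4677 day 4 only peaks. When the 12945 highest-scoring peaks of day 2 were set against the day 4 list, the shares were 60.6% and 59.0%, so at equal numbers the day 2 share was the slightly higher of the pair. Most shared regions were simple. A total of 6596 peak pairs matched one to one, with the narrower peak lying at the median 99.7% inside the wider, and the day 4 peak was the wider in 62.2% of pairs. In the rest, 892 day 4 peaks overlapped 2 or more day 2 peaks, and 466 day 2 peaks overlapped 2 or more day 4 peaks.

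On both days the unshared peaks had lower scores than the shared ones and lay more often away from gene ends. Among the lowest-scoring 10% of peaks 18.8% on day 2 and 22.2% on day 4 were shared, and among the highest-scoring 10% the shares were 96.2% and 95.6%. The median day 2 only peak was 524 bp wide against 783 bp for shared day 2 peaks, and the corresponding day 4 widths were 591 and 943 bp. A gene end lay inside or within 1 kb of 80.5% of shared day 2 and 35.3% of day 2 only peaks, and of 82.1% and 43.9% on day 4. Distances ran from the peak edges, so wider peaks reach further. Outside protein-coding genes lay 24.7% of day 2 only and 18.8% of day 4 only peaks, against 340 of 8722 shared day 2 peaks and 3.92% of shared day 4 peaks. Few unshared peaks were near misses. A peak of the other day lay within 1 kb of 18.2% of day 2 only and 21.7% of day 4 only peaks, while for 63.3% and 61.3% the nearest was over 10 kb away.

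The readout of day 6 separated the classes of unshared peaks. A day 6 H3ac peak overlapped 23.3% of day 4 only peaks and 13.0% of day 2 only peaks, and about the same share of shared peaks on either day, 56.5% and 56.7%. The share was higher for day 4 only than for day 2 only peaks in 10 of 10 score deciles, with decile means of 37.9% and 19.3%. Deciles are places within lists of different length, so the same decile is not a matched score on the 2 days. Day 6 shares at equal numbers are not given. At the top the gap was widest. Of the 57 unshared peaks among the strongest 10% of day 4, 45 (78.9%, 66.7 to 87.5%) overlapped a day 6 peak, and of the 66 such peaks of day 2, 28 did (42.4%, 31.2 to 54.4%). These intervals do not overlap, and among the strong shared peaks 76.5% of day 4 and 73.1% of day 2 overlapped a day 6 peak. Median widths of the strong unshared peaks were 1506 bp on day 2 and 1784 bp on day 4, and the part of width in this result was not tested. HDAC1 of day 2 gave no such split: its peaks overlapped 3.27% of day 2 only and 3.74% of day 4 only peaks, against 13.2% and 14.0% of shared ones, and the day 4 only share was the higher in 6 of 10 deciles. Among the strong unshared peaks HDAC1 overlapped 14 of 66 on day 2 (21.2%, 13.1 to 32.5%) and 5 of 57 on day 4 (8.77%, 3.81 to 18.9%), with overlapping intervals.

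**Figure D1:**
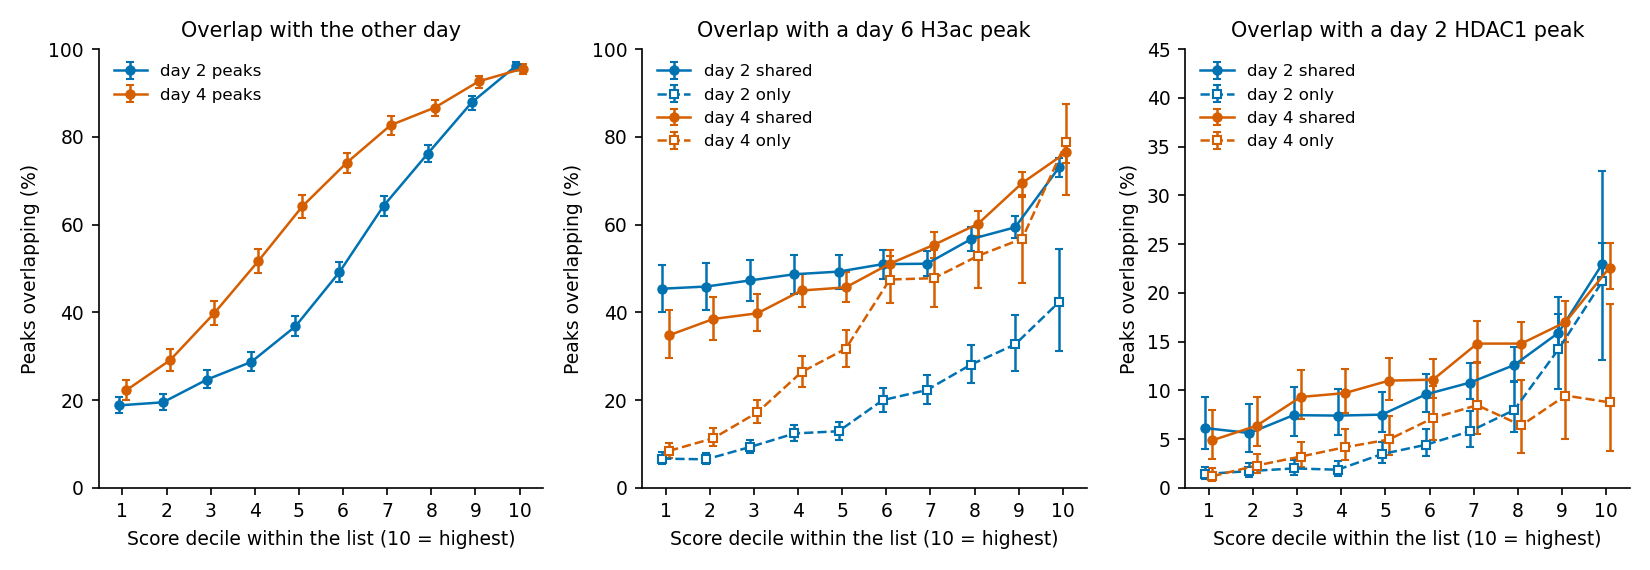
Share of H3ac peaks (%, with 95% Wilson intervals) overlapping a peak of the other day, a day 6 H3ac peak or a day 2 HDAC1 peak, by decile of score within each list, where 10 is the highest, with filled circles for all or shared peaks and open squares for peaks of 1 day only. The share overlapping the other day rises with score to 96.2% and 95.6%, and the day 4 only peaks lie above the day 2 only peaks for day 6 in every decile.

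The highest-scoring unshared peaks of day 2 included several at genes of pluripotent cells. The first was at Pou5f1 (chr17:35505090-35508685, score 1035.01, rank 32), and the nearest day 4 peak lay 7510 bp away. Utf1 followed with 607.20 and Gdf3, a Nodal-related ligand, with 538.31. A peak of score 538.79 reached an end of both Zfp13 and Zscan10, the second a zinc-finger gene of pluripotent cells, named after its value was seen. Gadd45g, a stress-induced growth regulator, had a day 2 only peak of 406.84, and Sp1, the GC-box factor, 1 of 355.13. Ino80e, a subunit of the INO80 chromatin remodeller, carried 609.21 on a peak that also reached Hirip3, and the peak of 575.89 nearest to Parp2 lay 2068 bp from Rpph1, the RNA of RNase P. Of the 15 highest, 5 overlapped a day 6 peak, among them those at Ino80e, Sp1 and Zbtb8a.

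The highest-scoring unshared peaks of day 4 included several at patterning and neural genes. Meis1 had the peak of rank 2 of 12945 (chr11:19013381-19021223, score 1879.42, 7843 bp wide), and the nearest day 2 peak scored 52.08 and lay 5736 bp off. Hoxb2, a hindbrain patterning gene, followed with 1010.78 and had no day 2 peak within 56 kb. Further peaks lay at Fat3, an atypical cadherin (585.26), Ccnd2, the cyclin D2 gene (540.31), Rgma, a repulsive guidance molecule and BMP coreceptor (527.04), Cdh2, the N-cadherin gene (525.22), and Zfp503, a zinc-finger gene (510.66). Lrp4, a coreceptor of Wnt and agrin signalling, had 653.01. Others among the 15 highest lay at Kirrel (676.71), Nuak2 (504.26) and Ier5 (493.16). Of the 15 highest, 13 overlapped a day 6 peak, the exceptions being Fat3 and Nuak1.

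Genes were classed next. The call "marked" was given to a gene if any H3ac peak reached to 1 kb or less from 1 of its ends. Of 21887 protein-coding genes, 1865 (8.52%) were marked on day 2 only, 1300 (5.94%) on day 4 only and 7013 (32.0%) on both days. With the 12945 highest-scoring peaks of each day, 6.41% were day 2 only and 7.83% day 4 only, so which class was larger turned with the length of the lists and counts at equal numbers are given with the lists. Where strand was listed, the peak lay at the 5′ end alone in 85.2% of day 2 only and 90.2% of day 4 only genes. The strongest peak of 47 day 2 only and 60 day 4 only genes overlapped a peak of the other day that ended beyond the window, and in 63.7% and 57.7% of the genes the other day had no peak in the gene or within 10 kb. Day 6 marked 20.1% (18.3 to 21.9%) of the day 2 only genes, 30.6% (28.2 to 33.2%) of the day 4 only genes and 57.8% of those marked on both days.

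The list named naive pluripotency had the most day 2 only members, and it also holds genes not limited to the naive state, such as Pou5f1. Of 32, 13 were marked on day 2 only, 0 on day 4 only and 7 on both days, and at equal numbers the counts were 9, 0 and 7. Beside the background of 8.52%, the day 2 only share was 40.6%. Pou5f1, Utf1 and Gdf3 led them, with Tdgf1, the Nodal coreceptor, at 226.62, Fgf4 at 216.58 and Dppa4, a chromatin factor of early embryos, at 147.91. Klf2 (75.17), Dppa2 (76.37), Tdh (60.42), Klf4 (52.61) and Dppa5a (51.85) had lower scores. The call at Nanog was a matter of the window: its day 2 peak (52.10) lay 750 bp from the gene and a day 4 peak that overlapped it lay 1201 bp away. At equal numbers neither Klf4 nor Nanog had a gene-end peak on either day. The 7 marked on both days included Sall4 (548.07 on day 2 and 486.53 on day 4), Lin28a, which blocks let-7 maturation (327.64 and 993.37), Tet1, a 5-methylcytosine oxidase (280.41 and 356.80), and L1td1 (576.23 and 71.59). The other 12 (37.5%, beside 53.5% of all genes) had no gene-end peak on either day, and at equal numbers 16 had none. Among these 12 were Esrrb, Zfp42 and Tfcp2l1, which encode naive-state factors, and Klf5, Tbx3, Prdm14, Nr0b1 and Nr5a2. A day 2 only peak of Zfp42 (62.31) lay 1006 bp from an end of the gene, just outside the window. Counting peaks in or within 10 kb of these 32 genes, 73.1% of day 2 peaks were day 2 only, against 46.1% of day 2 peaks near all genes.

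Primed epiblast genes divided. Of 20, 6 were day 2 only, 1 was day 4 only and 8 were marked on both days, with the same counts at equal numbers. Over all genes 8.52% were day 2 only and 5.94% day 4 only, and the single day 4 only gene of these 20 is near that background. The 6 included the homeobox gene Otx2 (109.28), the growth factor Fgf5 (72.72), the forkhead gene Foxd3 (186.46) and the ETS factors Etv4 (66.85) and Etv5 (169.84), and none of the 6 had a day 4 peak in the gene or within 10 kb. There Otx2 and Etv5 had 6 day 2 only peaks each and Foxd3 had 4. The 8 on both days were Zic2, Zic5, Sox4, Sox11, Sall2, Pou3f1, Dnmt3b and Lef1. Lef1, a Wnt effector, scored 546.11 on day 2, within its highest 10%, and 93.37 on day 4, below the median of 101.61 of that list. In the opposite order, Sox11 scored 131.98 and 554.81, the second within the highest 10% of day 4. These are places within each list and show no change between days.

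**Figure D2:**
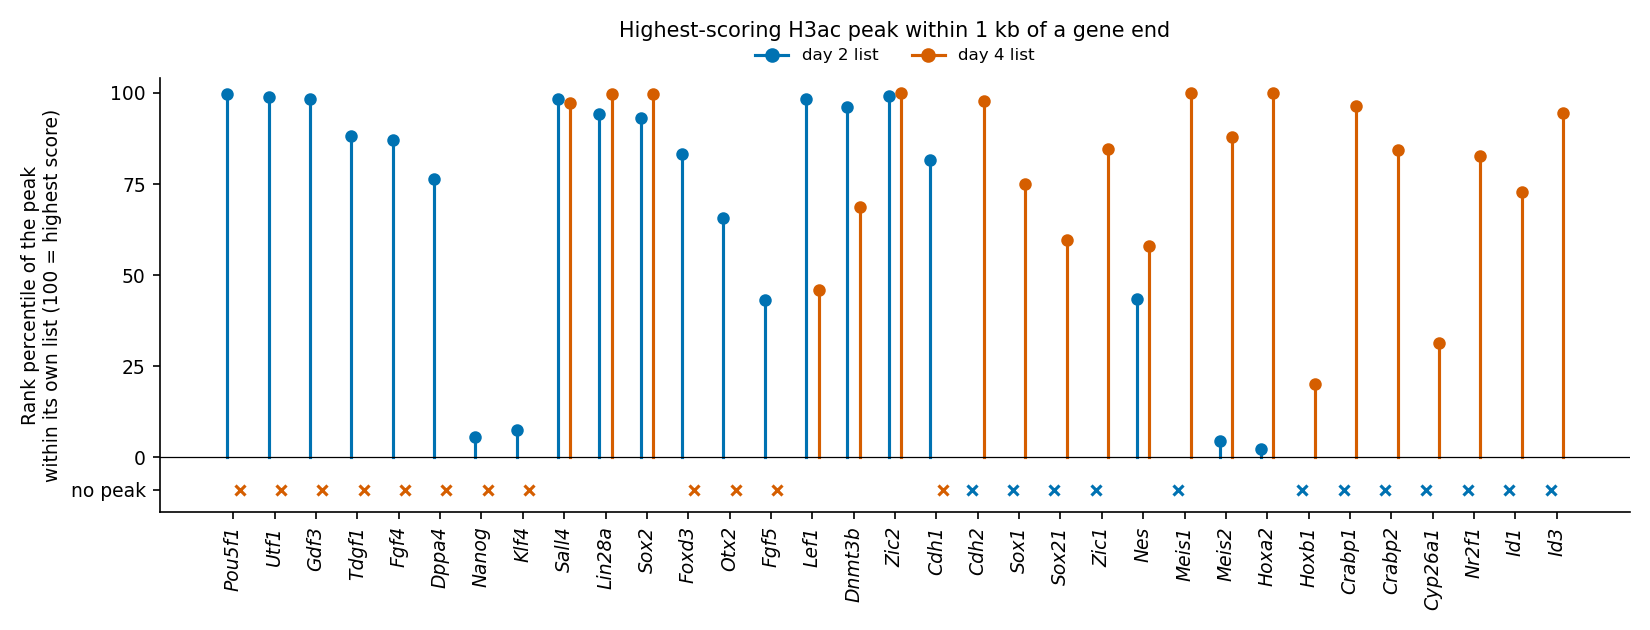
Rank percentile, inside its own list, of the best-scoring H3ac peak at a gene's ends (window 1 kb, 100 is the highest score), for 33 genes on day 2 (blue) and day 4 (orange). Crosses mark genes with no such peak, and since the lists differ in length, a difference in height between colours is no measure of change.

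Neural progenitor genes went the other way. Of 50, 18 were day 4 only, 4 day 2 only and 10 marked on both days, and the equal-number counts were 21, 3 and 7. The day 4 only share was 36.0% beside a background of 5.94%. Meis1 led, followed by Zic1 and its neighbour Zic4, which shared a peak of 238.49. Nr2f1, a nuclear receptor of the neural tube, scored 223.23, Vim, the intermediate filament of progenitors, 222.07, Sox1, the early neural SoxB1 factor, 181.29 and Pax3, a dorsal neural tube factor, 143.96. Nearer the floor of the list were Hes5 (67.03), the Notch effector, and Fabp7 (53.67), a fatty acid carrier of radial glia. For 15 of the 18 no day 2 peak lay in the gene or within 10 kb, and 8 of the 18 were marked on day 6. Sox2, shared by stem cells and neural progenitors, was marked on both days (302.68 and 1122.54) and on day 6 (1070.72), and so on days 2 and 4 was the filament gene Nes (72.95 and 120.24). Pax6, an eye and forebrain factor, had no gene-end peak, though its best day 4 peak in the gene or within 10 kb scored 567.11. Members of the 10 on both days with low day 2 scores included Meis2 (51.79, and 267.64 on day 4), Ptn (51.35 and 259.50) and Irx3 (56.34 and 245.02). The 4 day 2 only members were the forebrain genes Six6 (82.10), Emx2 (78.97), Otx1 (62.11) and Rax (56.14). Near the 50 genes 78.5% of day 4 peaks were day 4 only, against 33.7% near all genes.

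Genes of later neurons were little marked on either day. Of 29, 3 were day 2 only (Nefl at 109.52, Stmn3 and Elavl3), 1 was day 4 only (Stmn2, 86.75) and 2 were marked on both days, with the same counts at equal numbers. On neither day marked were 79.3%, beside 53.5% of all genes, and 6.90% were marked on both days beside 32.0%. Their day 2 only share was 10.3% beside 8.52% of all genes, and their day 4 only share 3.45% beside 5.94%. Markers of other lineages were also seldom marked on both days. Of 26 mesendoderm genes 1 was day 2 only, 1 day 4 only and 2 marked on both (0, 2 and 1 at equal numbers). Each 1-day share was 3.85%, beside 8.52% and 5.94% of all genes, and 7.69% were marked on both days beside 32.0%. Neither T nor Eomes, which specify mesoderm, had a gene-end peak on either day. Trophoblast genes gave 1 of 14 (Cdh3, day 2 only) and extraembryonic endoderm 3 of 18 (Lamb1 on day 2 and Lama1 and Sparc on day 4). Neural crest gave 3 of 12, 1 day 2 only and 2 day 4 only, and the germ line 2 of 16, both day 2 only. No gene of the trophoblast, endoderm, crest or germ line lists was marked on both days. In that order the day 2 only shares were 7.14%, 5.56%, 8.33% and 12.5%, beside 8.52% of all genes. The day 4 only shares were 0%, 11.1%, 16.7% and 0%, beside 5.94%, so not every 1-day share was low. Of 24 genes of adult tissues 2 were day 4 only, Mbp (161.42) and Sftpc (133.63), a share of 8.33% beside 5.94% of all genes. The counts of these last 5 lists were the same at equal numbers.

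**Figure D3:**
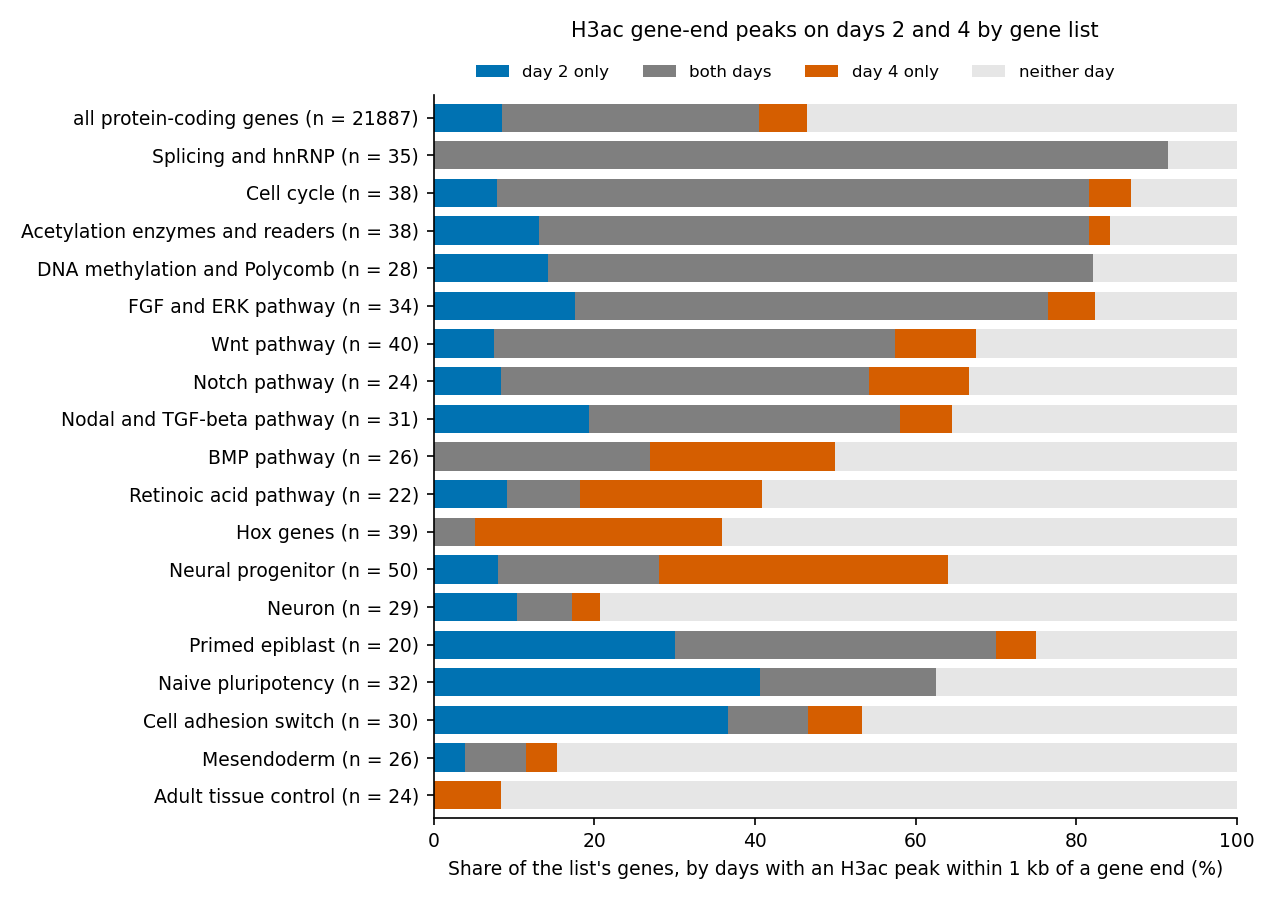
Share (%) of the genes of 18 lists, and of all protein-coding genes, with an H3ac gene-end peak on day 2 only (blue), both days (grey), day 4 only (orange) or neither (pale), with the number of genes in brackets. Blue is widest in the naive pluripotency and cell adhesion lists and orange in the neural progenitor and Hox lists.

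Hox genes, which give cells their position along the body axis, were mostly day 4 only where they were marked. Of 39, 12 were day 4 only, 2 were marked on both days and 0 on day 2 only, and the equal-number counts were 13, 1 and 0. The day 4 only share was 30.8% beside 5.94% of all genes, and 5.13% were marked on both days beside 32.0%. The other 25 (64.1%, beside 53.5% of all genes) were marked on neither day. No Hoxd gene was marked, and Hoxc9 was the only marked Hoxc gene. Hoxa3 had 11 day 4 only peaks in the gene or within 10 kb, more than any other gene, and Hoxb3 had 10. A peak of score 1327.55 (chr6:52162645-52169193) reached ends of Hoxa2 and Hoxa3 and overlapped a day 2 peak of 50.99, near the lowest score. It covered the listed start of Hoxa2. In Hoxa3, 44008 bp long, it began 43874 bp from the start and so reached only the opposite end. The marked genes were mostly of the anterior paralogue groups, with Hoxa9 (103.42) and Hoxc9 (52.00) the most posterior. Neighbouring Hox genes share peaks, so these genes are not separate counts. The cofactor gene Meis1 also had a day 4 only peak at a gene end, and the orphan receptor Nr2f2 (148.87) had 6 day 4 only peaks in the gene or within 10 kb.

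Retinoic acid, a morphogen made from vitamin A, acts through receptors that switch on Hox genes. Of 22 genes of its pathway, 5 were day 4 only, 2 day 2 only and 2 on both days, with the same counts at equal numbers. The day 4 only share was 22.7% beside 5.94% of all genes, and the day 2 only share of 9.09% was near the 8.52% of all genes. The binding proteins Crabp1 (451.83) and Crabp2 (236.61) and the degrading enzyme Cyp26a1 (70.14) were day 4 only, and no day 2 peak lay within 10 kb of these 3. Among the receptors Rara (87.12) and Rxra (68.10) were day 4 only, Rarg (66.80) was day 2 only and Rxrb was marked on both. The call at Rxra depends on the window, since a shared day 2 peak (63.94) lay 1127 bp from an end of the gene. Rara also had 8 day 2 only peaks within the gene or 10 kb of it, so its gene-end call and its surroundings pointed to different days. Rdh10, which makes retinaldehyde, was marked on both days (721.21 and 182.04).

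BMP and Nodal, branches of the TGF-beta family, differed in their counts. Of 26 BMP genes, 6 were day 4 only, 0 day 2 only and 7 on both days (7, 0 and 6 at equal numbers). The day 4 only share was 23.1% beside 5.94% of all genes. The 6 held the targets Id3 (381.75), Id2 (272.78), Id1 (171.77) and Msx1 (122.90), the receptor Bmpr1b (147.66) and the ligand Bmp7 (68.61), and none had a day 2 peak within 10 kb. Of 31 Nodal and TGF-beta genes, 6 were day 2 only, 2 day 4 only and 12 on both days (4, 3 and 11 at equal numbers). The shares were 19.4% and 6.45% beside 8.52% and 5.94% of all genes, so the day 4 only share was near that of all genes. The ligands Gdf3 (538.31), Tgfb1 (135.85) and Nodal (111.94) and the coreceptor Tdgf1 were among the day 2 only genes. Day 4 only were the receptor Tgfbr2 and Furin (65.25), a protease that processes the ligands. The receptors Acvr1b, Acvr2a and Acvr2b and the effectors Smad3, Smad4 and Foxh1 were marked on both days, and the receptor Acvr1c and the effector Smad2 on neither. Whether the 2 pathways differ was not tested.

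In FGF and ERK signalling the genes marked on 1 day were ligands and ETS-family targets. Of 34 genes, 6 were day 2 only, 2 day 4 only and 20 on both days (6, 3 and 19 at equal numbers). The day 2 only share was 17.6% beside 8.52% of all genes, and the day 4 only share of 5.88% was near the 5.94% of all genes. Day 2 only were the ligands Fgf4 (216.58), Fgf17 (116.98), Fgf5 (72.72) and Fgf3 (70.44) and the targets Etv5 and Etv4, and day 4 only were the ligands Fgf15 (99.48) and Fgf2 (51.78). Marked on both days were the receptors Fgfr1 and Fgfr2, the kinases Mapk3, Map2k1 and Map2k2 and the feedback inhibitors Dusp6 (670.23 and 759.44), Dusp4 (379.52 and 369.16) and Spry2 (594.52 and 1350.60). Notch gave 2 day 2 only genes (Rbpj at 127.05 and Hey1), 3 day 4 only (Lfng at 259.05, Maml2 and Hes5) and 11 on both of 24, with the same counts at equal numbers. Its day 2 only share of 8.33% was near the 8.52% of all genes, and its day 4 only share was 12.5% beside 5.94%. Wnt gave 3, 4 and 20 of 40, and at equal numbers 0, 7 and 17, and its day 2 only share was 7.50% and its day 4 only share 10.0%. Of 37 axon guidance genes 7 were day 2 only, 7 day 4 only and 10 on both, and at equal numbers 6, 9 and 8. Both 1-day shares were 18.9%, beside 8.52% and 5.94% of all genes.

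Epithelial cells join through E-cadherin, claudins and Epcam, and neural progenitors use N-cadherin. Of 30 genes of both kinds 11 were day 2 only, 2 day 4 only and 3 on both days (10, 3 and 2 at equal numbers). The day 2 only share was 36.7% beside 8.52% of all genes, and the day 4 only share of 6.67% was near the 5.94% of all genes. Day 2 only were Epcam (186.51), Cdh1, the E-cadherin gene (175.21), Cldn4 (172.73), Esrp1, an epithelial splicing factor (113.98), Cdh3 (100.43), Cldn6, Cgn and Cldn7. Day 4 only were Cdh2 (525.22) and Vim (222.07). No day 2 peak lay within 10 kb of Cdh2, the nearest being 1438025 bp away, and the day 4 peak nearest to Cdh1 lay 12804 bp away. Epcam had a day 4 peak of score 58.56 inside the gene, 3305 bp from its start.

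Most genes of the chromatin and splicing lists were marked on both days. Of 38 acetylation enzymes and readers 26 were marked on both days, Ep300 (453.92 and 521.88), Brd2 (1591.64 and 1026.97), Hdac1 and Hdac2 among them, 5 on day 2 only and 1, Sirt6, on day 4 only, with the same counts at equal numbers. The share marked on both days was 68.4% beside 32.0% of all genes, and the day 2 only share 13.2% beside 8.52%. Of the 5, Kat2b (270.93), Rcor2 (91.93), Sirt1 (72.68) and Rest were marked on day 6. Rest, which silences neuronal genes, was again a matter of the window. Its day 2 peak (458.04) lay inside the gene, 901 bp from an end, and an overlapping day 4 peak lay 1014 bp from an end. Of 28 DNA methylation and Polycomb genes 19 were marked on both days and 4 on day 2 only, among them Pcgf6 (150.71), Ezh1 (94.20) and Cbx8 (57.75), and at equal numbers 19 and 3. The shares were 67.9% and 14.3%, beside 32.0% and 8.52% of all genes. Of 35 splicing and hnRNP genes 32 were marked on both days (91.4%) and none on 1 day, also at equal numbers. The highest-scoring shared peaks at gene ends were at Rpl13a, Gapdh and Brd2 on day 2 and at Tnrc18, Zic2 and Kdm2b on day 4. Ranks 1 and 4 of day 2 (3100.00 and 1643.96) were a pair of shared peaks on chromosome 2, nearest to Lrrc4c. They lay at no gene end, overlapped day 4 peaks of 729.80 and 151.12 and overlapped no day 6 peak. The score of 3100.00 was also the highest in the HDAC1 list. No count here was filtered for regions of artefactual signal, so whether this pair reflects acetylation was not tested.

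**Figure D4:**
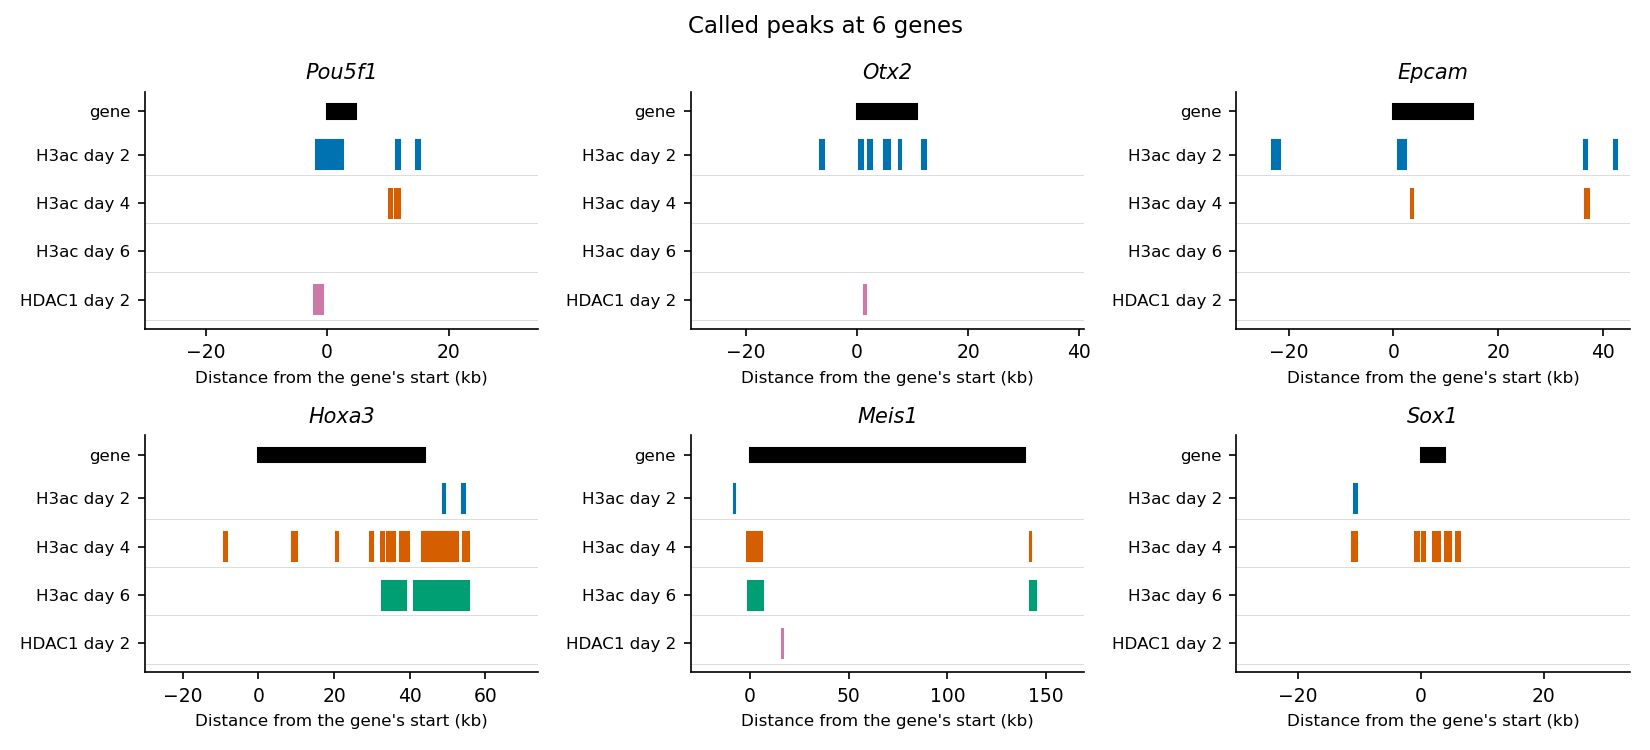
Called peaks (bars, to scale) of H3ac on days 2, 4 and 6 and of HDAC1 on day 2 around 6 genes, by distance in kb from the gene's start along its own direction, with the gene in black. Pou5f1, Otx2 and Epcam have day 2 only peaks at or just after the start, and most peaks of Hoxa3 and Sox1 and the widest of Meis1 are of day 4.

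Maps of single genes showed how the peaks were laid out. At Otx2, 6 day 2 peaks of 66.53 to 109.28 ran from 6621 bp before the start to 12434 bp after it, and no day 4 or day 6 peak lay within 30 kb. Pou5f1 had 2 day 2 only peaks from -1906 to 2653 bp and 2 more day 2 peaks past the gene, where both day 4 peaks also lay, 1 of them shared. HDAC1 peaks overlapped the upstream part of the Pou5f1 region, with scores 53.45 and 145.14. Sox1 had 5 day 4 only peaks between -920 and 6484 bp, and its single day 2 peak lay over 10 kb upstream and was shared. The counts of unshared peaks in the gene or within 10 kb picked out other loci. Myo10, an unconventional myosin, had 11 day 2 only peaks, Zmynd8, a reader of acetylated histones, 9, and Bcl11b, Igsf21, Pxn and Rara 8 each. Myo10 spans 191 kb and had no day 2 peak at a gene end but 1 of day 4 (239.72) and 1 of day 6 (85.36). On day 4, Rbms1 had 7, and Hoxb2, Zfp503, Nr2f2 and Meis2 6 each.

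MicroRNAs are cut from short hairpins and pair through their seed with the messages they repress. A hairpin was counted with a peak within 1 kb. Of 1005 hairpins in the RefSeq table, 63 (6.27%) had a day 2 peak only, 23 (2.29%) a day 4 peak only and 71 (7.06%) both, and at equal numbers the counts were 41, 26 and 68. Hairpins of a cluster share peaks, and the 63 went with 44 peaks. The clusters named here were chosen after their values were seen. The miR-290 cluster, the main microRNA cluster of mouse embryonic stem cells, had a day 2 only peak (chr7:3217544-3219862, score 501.01) that lies at an end of Nlrp12, and HDAC1 (292.47) and day 6 H3ac (65.80) peaks lay within 1 kb of its first hairpins. The miR-302 and miR-367 cluster, inside Larp7, had 1 of 53.94, which is not among the 12945 highest of day 2, and the miR-106a to miR-363 cluster on the X chromosome had peaks of 92.86 and 131.23. Mature forms from these loci are printed 5′ to 3′ with the seed, bases 2 to 8, in capitals, because the loci share seeds.
miR-294-3p: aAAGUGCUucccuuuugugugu
miR-295-3p: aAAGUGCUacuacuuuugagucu
miR-302b-3p: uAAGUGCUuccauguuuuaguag
miR-302d-3p: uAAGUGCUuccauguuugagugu
miR-106a-5p: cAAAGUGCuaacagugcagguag
miR-20b-5p: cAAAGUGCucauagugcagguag
miR-367-3p: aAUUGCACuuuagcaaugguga
miR-363-3p: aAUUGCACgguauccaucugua
Seed AAGUGCU was common to miR-294, miR-295, miR-302b and miR-302d, from 2 clusters, and seed AAAGUGC of miR-106a and miR-20b holds the same core moved by a base. The day 4 only hairpins were led by Mir219a-2 and Mir219b, on a peak of 693.07 at ends of Urm1 and Cercam, and by Mir92b, on a peak of 561.00 next to Thbs3, and both peaks overlapped day 6 peaks. miR-219 is known from the neural lineage. Another miR-219a hairpin, Mir219a-1, had peaks on both days (110.48 and 354.99).
miR-219a-5p: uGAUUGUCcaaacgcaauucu
miR-92b-3p: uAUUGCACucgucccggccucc
miR-92a-3p: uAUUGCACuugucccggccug
Seed AUUGCAC occurred in both classes. It belongs to miR-367 and miR-363 of the day 2 only clusters and to miR-92b of day 4, and the mature miR-92a-3p is made from Mir92-2 (day 2 only, 92.86) and Mir92-1 (day 4 only, 50.04). The Mir92-1 call depends on the window and on a score near the floor. Its cluster neighbours Mir17, Mir18, Mir19a and Mir20a had peaks on both days, with a day 2 peak of 70.09. No seed was tested for a link with either day.

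Promoters marked on 1 day were compared with those marked on both. RefSeq windows from 250 bases before to 50 after the start were listed for 17492 genes, 21263 promoters in all. The median ratio of observed CpG to that given by base composition was 0.694 in day 2 only, 0.732 in day 4 only and 0.833 in promoters marked on both days, against 0.254 in promoters marked on neither. CCGGAAG was found, on either strand, in 11.7% (10.3 to 13.4%) of day 2 only, 12.1% (10.4 to 14.0%) of day 4 only and 23.8% (22.8 to 24.8%) of promoters marked on both days, against 11.6% of all. The octamer ATTTGCAT of Oct4 and other POU factors was in 1.58% of day 2 only, 1.57% of day 4 only and 1.12% of promoters marked on both days, against 1.66% of all. CACGTG, the E-box of Myc, was in 10.6% (9.20 to 12.1%) of day 2 only and 7.14% (5.85 to 8.68%) of day 4 only promoters and in 11.2% of promoters marked on both days, against 7.84% of all. The value of promoters marked on both days lay inside the interval of day 2 only promoters. The TATA box TATAAA was in 6.37% and 6.20%, against 18.8% of promoters marked on neither day.

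Peak position relative to the start also went with sharing. On the chromosomes of the promoter table, 79.7% of shared day 2 peaks and 79.8% of shared day 4 peaks had their midpoint within 3 kb of a start, against 38.3% of day 2 only and 45.3% of day 4 only peaks. Of those within 3 kb, 77.0% and 77.9% of shared peaks lay downstream of the start, 69.1% of day 4 only peaks and 60.5% of day 2 only peaks.

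**Figure D5:**
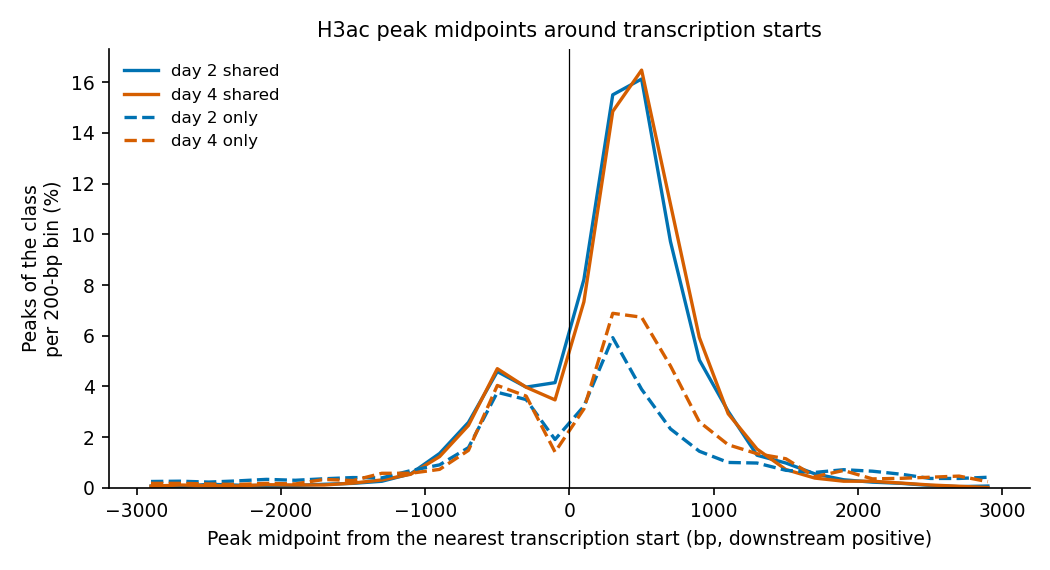
Share (%) of the peaks of each class with their midpoint in each 200-bp bin from 3 kb before to 3 kb after the nearest listed transcription start. All 4 classes have a minor summit before and a main summit after the start, and between 600 bp before and 1 kb after the start shared peaks (solid) stand above those of 1 day (dashed).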

How the data were processed

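The authors deposited 1 peak list for each ChIP library, with chromosome, start, end, name and a score. Reads were aligned with Bowtie 0.12.8 to mm10, per the submitters' processing notes, and the peak names begin with MACS, a peak caller. For that caller, the sources used here give neither version nor threshold, nor whether input reads served as control. The scale of the authors' score is not stated.

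Overlaps, gene classes and Wilson intervals were computed in Python 3.11.15 with numpy 2.4.6, pandas 2.3.3 and scipy 1.17.1. Genes came from a RefSeq table of GRCm38.p6 without strand, and starts and promoters from a second RefSeq table. Peaks off the main chromosomes (10 on day 2 and 1 on day 4) entered no gene count. All coordinates are 1-based. The overlap procedure was tested on simulated intervals.

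The members, the 27 gene lists and the tests were chosen with earlier results of these data known. Genes named were 53 candidates whatever their values, the nearest genes of the 15 highest-scoring unshared peaks of each day, the 10 genes with most unshared peaks, the best-scoring members (4 at most) of every list in each class, and the 5 highest shared peaks. Other genes were named after their values were seen. No p-value was computed, since peaks and genes are not replicates. Alternatives covered the overlap rule, list lengths, gene windows and chromosomes. Some genes are not reported here.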

Additional observations from a re-analysis of the deposited data

How the results depend on the processing

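The share of day 2 peaks overlapping a day 4 peak was 47.1% when 50% of the narrower peak had to be covered, 59.3% with peaks within 1 kb, 57.5% in the higher-scoring 50% of each list, 60.6% with equal numbers, 64.0% with the 5000 highest-scoring peaks of each list and 87.5% for the 5000 highest against the whole other list, an alternative chosen after seeing the data. The day 4 share was 61.0%, 71.7%, 74.4%, 59.0% and 89.8% under the same alternatives except the 5000 highest of each list, where it stayed within its interval at 63.6%. The order of the days turned with equal numbers, and so did that of the 1-day gene counts (1404 and 1713). Of the 1000 strongest day 2 peaks, 21 were unshared, against 66 of the 1736 peaks in the strongest 10%. The day 4 list is the shorter and was not cut for this count, so fewer day 2 peaks were asked about. Of the 1000 strongest day 4 peaks, 49 were unshared with the day 2 list cut to equal length, against 57 in the strongest 10%. Genes marked on both days numbered 3375 with the 5000 highest peaks and 4406 at gene ends free of neighbours. With no peak of the other day in the gene or within 10 kb, also chosen after seeing the data, 1188 day 2 only and 750 day 4 only genes were left. In all, 29 of 45 alternatives left shares within their intervals and counts within 1.5 times. No paired analysis was possible because each day had 1 library and no result comes from a test.

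Depth was not given and limits what a missing peak shows.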
